A study of Rattus norvegicus with 4 samples.

Results

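Carbonic anhydrase 3 is described here through 2 of the 6240 spotted clones, RGIAI10 and RGIAP58, chosen by their measured values, as the clones with a ratio on all 4 arrays and a mean log2 ratio between -4.05 and -3.95. Each array compared liver RNA of 1 female with that of 1 male untreated young Sprague Dawley rat, 3 months old, so that a log2 ratio below 0 is a transcript less abundant in the female. The female sample carried Cy3 on arrays 1 and 2 and Cy5 on arrays 3 and 4. The arrays were 4 in number, and their labels name no animals. The study describes RNA of individual animals and independent measurements, from which a separate pair of animals per array was assumed. All arrays carried whole liver, in which a change in cell composition and a change of RNA per cell cannot be told apart. Between 1871 and 2890 clones had a ratio on an array, and 1449 had one on all 4.

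Carbonic anhydrases are zinc enzymes that convert carbon dioxide and water to bicarbonate and a proton. Carbonic anhydrase 3 is the cytosolic member with low hydratase activity, abundant in skeletal muscle and fat and, in the rat, in male liver. Many sex-dependent transcripts of rat liver follow the pattern of growth hormone secretion, which is pulsatile in males and more even in females. In the RefSeq annotation of the GRCr8 rat assembly the gene, Car3, lies between Car2 and Car1 among protein-coding genes, with Car13 next to Car1. Of 16 family members looked for, 16 were annotated, and 5, counting Car3 itself, lay on the chromosome of Car3. No reference sequence of Car3 is printed.

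The gene name is tentative. The rows carry clone identifiers alone, and the name comes from the female over male ratio that the study tabulated for carbonic anhydrase 3. Among clones with a value on at least 3 arrays, 2 had a mean that gives this ratio to its printed decimals, the same 2 as the rule found. Any mean in the interval of the rule gives this ratio, so the match of these 2 is no check of the name. The study described its tabulated ratios as medians. With the median over arrays in place of the mean, only 1 clone matched, RGIAP58. The median of RGIAI10 was -4.19 and fell just outside the rounding. However, the 14 highest tabulated ratios each equalled a tested clone's mean to 2 decimals, and medians were not compared for them. The tabulated entry may therefore stand for either clone, for both or for neither, and no marker or sequence that could check the name was used. No other family member can be recognised among the clones, so none has a value here.

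Both clones were far lower in female than in male liver on each of the 4 arrays. RGIAI10 had log2 ratios of -4.74, -2.95, -4.37 and -4.01 on arrays 1 to 4, which are 26.8-, 7.71-, 20.7- and 16.1-fold lower levels in the female. The ratio was weakest on array 2 and strongest on array 1. RGIAP58 had -4.55, -3.39, -4.36 and -3.68, or 23.4-, 10.5-, 20.5- and 12.8-fold lower. Again array 2 was the weakest and array 1 the strongest. The means were -4.02 ± 0.78 (SD, n = 4) for RGIAI10 and -3.99 ± 0.55 (SD, n = 4) for RGIAP58, 16.2- and 15.9-fold lower in the female. These means chose the clones, so they are given as a description and were not tested. Of the 2070 clones tested with limma over all arrays, 125, or 6.04%, were lower in the female at an adjusted p under 0.05. Both clones were among these 125. The rule chose them on the mean that this fit tests, though not on their spread, so the call largely restates the choice. Without array 1 the count was 82, in a different set of clones, those with a value on at least 2 of the remaining arrays.

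**Figure D1:**
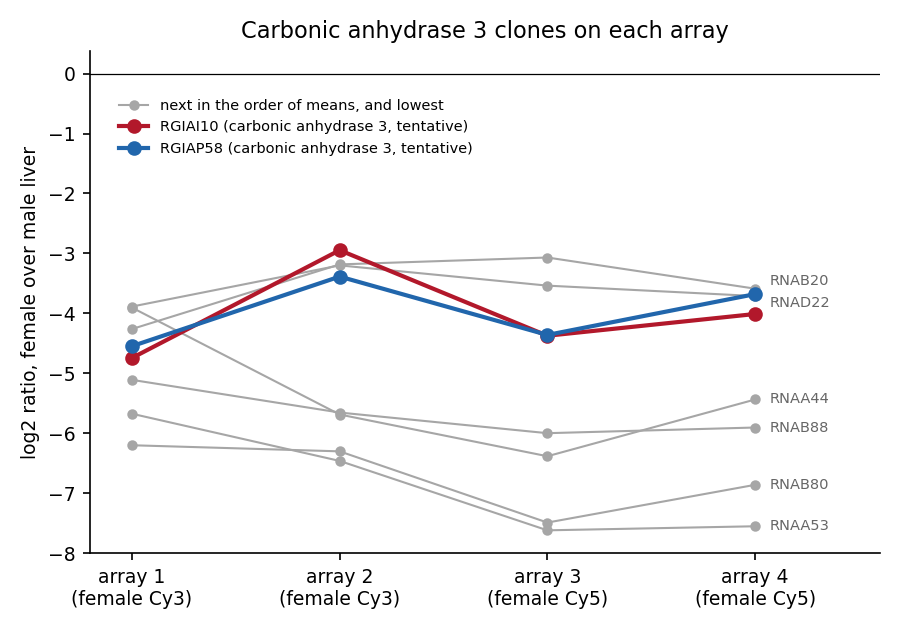
Log2 ratio of female over male liver (vertical axis) on each array (horizontal axis, with the dye of the female sample) for RGIAI10 and RGIAP58, with the 4 clones of lower mean and the 2 of next higher mean in grey. Both coloured lines come closest to 0 on array 2, at -2.95 and -3.39, and lie farthest from it on array 1.

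Among the 1449 clones with 4 values they ranked 5 and 6 from the lowest, 0.03 apart (log2). The next lower mean was that of RNAA44 at -5.35 ± 1.05 (SD, n = 4), a gap of 1.33. The next higher means belonged to RNAD22, at -3.58 ± 0.29 (SD, n = 4) and a gap of 0.41, and to RNAB20, at -3.53 ± 0.54 (SD, n = 4). On array 2 both RNAD22 (-3.20) and RNAB20 (-3.18) were lower than RGIAI10 (-2.95), whereas on arrays 1, 3 and 4 RGIAI10 was the lower. No clone with fewer than 4 values had a mean in the interval of the rule, and the lowest of them was RNACB12, with a single value of -3.61 on array 4.

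**Figure D2:**
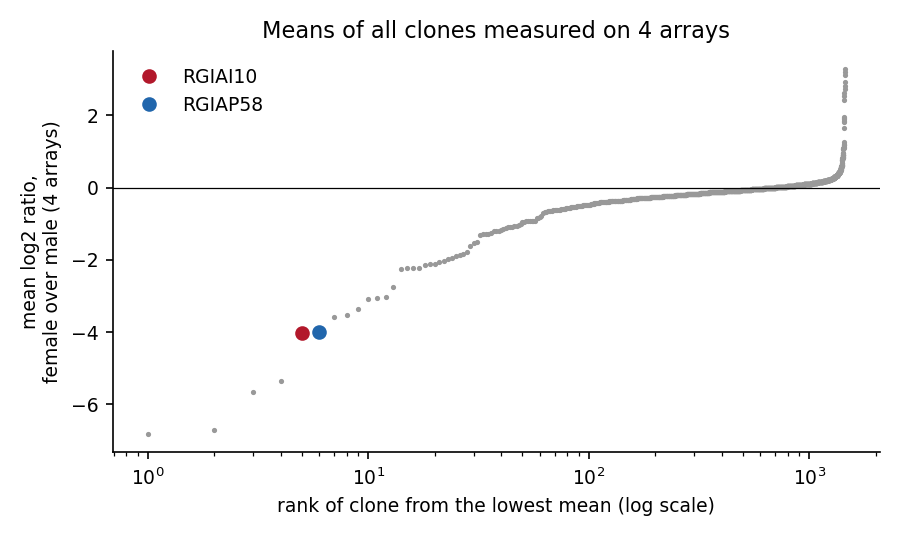
Mean log2 ratio of female over male (vertical axis) of each of the 1449 clones measured on 4 arrays, against its rank from the lowest mean (horizontal log axis). RGIAI10 and RGIAP58 take ranks 5 and 6, below a gap of 0.41 and above a gap of 1.33.

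Within single arrays, RGIAI10 ranked 4 from the lowest of 2890 measured clones on array 1, 11 of 2298 on array 2, 5 of 2243 on array 3 and 7 of 1871 on array 4. RGIAP58 ranked 5, 6, 6 and 9. The rule chose the clones on the mean of these same values, so ranks near the low end largely restate it. RGIAI10 lost most places on array 2.

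The rule held the mean difference between the clones near 0, which leaves its spread over the arrays to describe. RGIAI10 minus RGIAP58 was -0.20, 0.44, -0.01 and -0.33 on arrays 1 to 4, with an SD of 0.34. The average of the pair was -4.65, -3.17, -4.37 and -3.84, with an SD of 0.65. The average thus varied more over the arrays than the difference did. The same held for the 2 clones of lowest mean, RNAA53 and RNAB80, with an SD of 0.50 for the difference and 0.74 for the average. On array 3 the values almost coincided, and on array 2 they were farthest apart. The clones shared each array's hybridisation and animals, and 4 arrays are too few for a correlation.

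The spread of the pair over arrays was large among all clones and within the range of other strongly male-predominant ones. The SD over arrays was 0.78 for RGIAI10, larger than that of 98.2% of the other 1447 clones with 4 values, and 0.55 for RGIAP58, larger than 94.8% of them. The median SD was 0.20. Among the other 47 clones with a mean below -1, that is over 2-fold lower in the female, the SD ranged from 0.23 to 2.44 with a median of 0.58. RGIAI10 exceeded 38 of these 47 and RGIAP58 exceeded 21. Array 2 made up much of the spread of RGIAI10, whose SD was 0.37 without that array and whose mean was then -4.38. With arrays scaled to equal spread the SD of RGIAP58 was 0.93.

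Whether the ratios depended on the dye of the female sample was tested, since dye orientation did not enter the choice of clones. RGIAI10 averaged -3.85 on the arrays with the female in Cy3 and -4.19 with it in Cy5. The difference of -0.35 ± 0.50 (standard error) did not pass the test (adjusted p = 0.985 in limma), with a 95% interval from -1.51 to 0.82. In size this difference exceeded that of 80.4% of the clones fitted, whose median was 0.16. RGIAP58 averaged -3.97 and -4.02, a difference of -0.05 ± 0.39 (adjusted p = 0.996 in limma, 95% interval from -0.95 to 0.85). With arrays scaled to equal spread the differences turned to 0.15 and 0.42, without array 2 they were 0.55 and 0.53, and without array 1 that of RGIAI10 was -1.25, so that no direction can be given. The intervals are wide, and dye effects within them cannot be told from none. The mean in each orientation lay below -3.8 for both clones. Of all 2070 clones, 0 (0%) passed this test and 124 (5.99%) had an unadjusted p under 0.05. With 2 arrays in each orientation this test can miss dye effects of single clones.

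**Figure D3:**
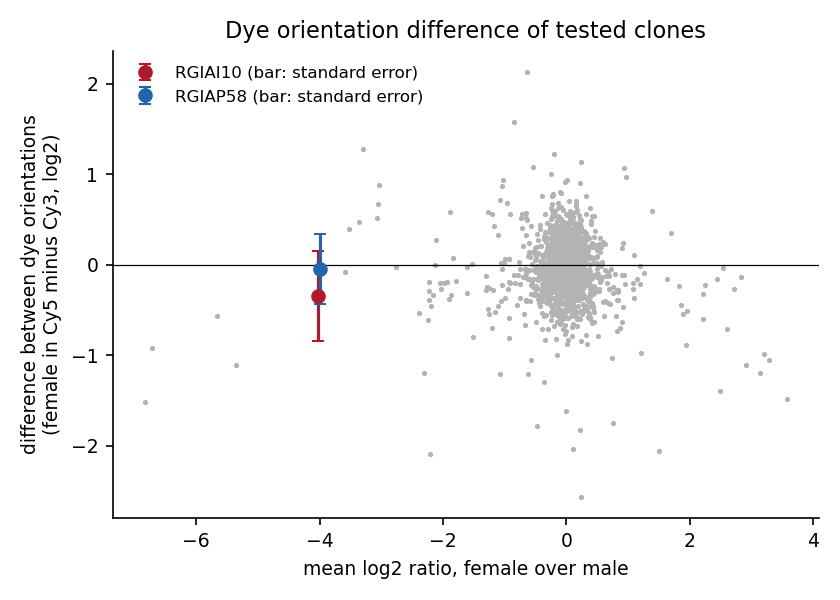
Difference between dye orientations, female in Cy5 minus female in Cy3 (vertical axis, log2), against the mean log2 ratio of female over male (horizontal axis) for the 2070 tested clones, with bars of 1 standard error for RGIAI10 and RGIAP58. The coloured points lie at -0.35 and -0.05, and both bars cross 0.

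The shape over the arrays differed between the pair and the 4 clones of lower mean. All 4, RNAA53, RNAB80, RNAB88 and RNAA44, were nearest to 0 on array 1, where RGIAI10 and RGIAP58 were farthest from it. RNAA53 had -5.67, -6.46, -7.62 and -7.55 on arrays 1 to 4, and RNAB80 had -6.20, -6.30, -7.49 and -6.86. Both match, by the same tentative rule, the tabulated entry of alpha-2u globulin, a carrier protein made in male rat liver and excreted in urine. RNAB88 had -5.11, -5.65, -5.999 and -5.90, and RNAA44 had -3.90, -5.69, -6.38 and -5.44. As a result RNAA44 was higher than both carbonic anhydrase 3 clones on array 1 and lower than both on arrays 2 to 4. The shape of the pair was not particular to it. Of the other 47 clones with 4 values and a mean below -1, 20 were farthest from 0 on array 1 and 23 nearest to 0 on array 2. RNAD22 had both features, with -3.89, -3.20, -3.54 and -3.71. Differences in shape were not tested, since each array is a single measurement.

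Relative to its own mean, RGIAI10 had 1.18, 0.73, 1.09 and 0.998 on arrays 1 to 4, and RGIAP58 had 1.14, 0.85, 1.09 and 0.92. The root mean square distance between these profiles was 0.07. Of the 71 other clones over 2-fold different in either direction, 2 lay closer to RGIAI10 and 1 closer to RGIAP58 than the pair lay to each other. When each clone's mean was subtracted in place of dividing by it, the distance was 0.29 (log2), and 14 and 15 clones were closer. The likeness of the pair relative to other clones therefore depended on the measure.

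The clones most like the average of the pair, by the relative profile over 4 arrays, were RNABK56 (distance 0.07), RNAB23 (0.08), RGIAJ13 (0.08), RNAD22 (0.09) and RGIAI73 (0.11). The median distance of the 71 clones was 0.20. RNABK56 was the female-predominant one of these, with 1.46, 0.94, 1.16 and 1.20 on arrays 1 to 4. Like the pair, it was nearest to 0 on array 2. RNAB23 had -1.77, -1.43, -1.86 and -1.41, and RGIAI73 had -2.80, -1.36, -2.56 and -2.18. RGIAI73 alone of these 5 was also among the 5 nearest when means were subtracted.

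The smaller difference on array 2 was common among male-predominant clones whose identifiers begin with RGI, as those of the pair do. Of 18 other such clones with 4 values and a mean below -1, 15 were nearest to 0 on array 2, and their median on that array was 0.59 of the clone's mean. Of 29 clones with 4 values, a mean below -1 and identifiers that begin with RNA, 8 were nearest to 0 on array 2, with a median of 0.94. RGIAI10, at 0.73, and RGIAP58, at 0.85, lay between these medians. Among the 12 clones with 4 values and a mean below -3, the pair were the RGI clones and the other 10 were RNA clones. What the identifiers stand for is not stated with the data, and their part in the array profile was not tested. The clones carry no gene names, so several of them may stand for the same transcript. The counts here and above are therefore of clones, not of separate transcripts, and the contrast between RGI and RNA clones may rest on few transcripts.

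**Figure D4:**
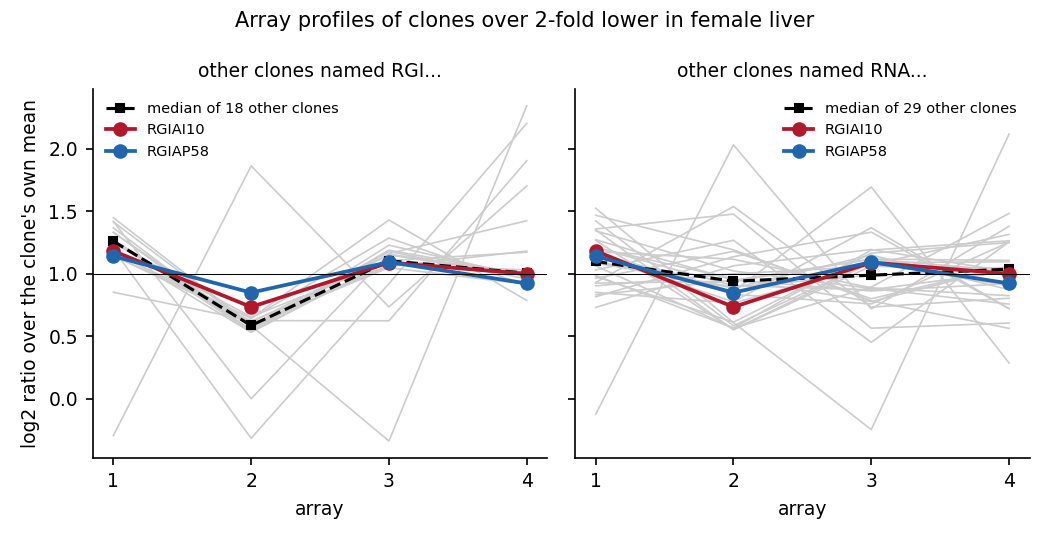
Log2 ratio over the clone's own mean (vertical axis) on arrays 1 to 4 (horizontal axis) for RGIAI10 and RGIAP58, drawn in both panels, with other clones over 2-fold lower in the female as grey lines (18 with RGI identifiers at left, 29 with RNA identifiers at right) and their median dashed. On array 2 the dashed line falls to 0.59 at left and 0.94 at right, and the pair lie at 0.73 and 0.85.

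The identifiers combine letters with a number that runs up to 96, and the pair differ in both. Of 32 tested clones with the letters RGIAI, 4 besides RGIAI10 had a mean below -1, and of 31 with the letters RGIAP, 1 besides RGIAP58 did. Of all 2070 tested clones, 62 (3%) had a mean below -1. RGIAI11, the next number after RGIAI10, had -1.75, -1.27 and -3.61 on arrays 1 to 3 and no value on array 4. Like RGIAI10 it was nearest to 0 on array 2, but it was lowest on array 3, and its mean was -2.21 ± 1.24 (SD, n = 3). RGIAI09, on the other side, had a single value of 0.27. Around RGIAP58 the next numbers were near 0, with RGIAP57 at 0.13 ± 0.07 (SD, n = 4) and RGIAP59 at 0.26 and 0.07 on the 2 arrays that measured it. Whether clones with neighbouring numbers lay next to each other is not stated with the data.

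**Figure D5:**
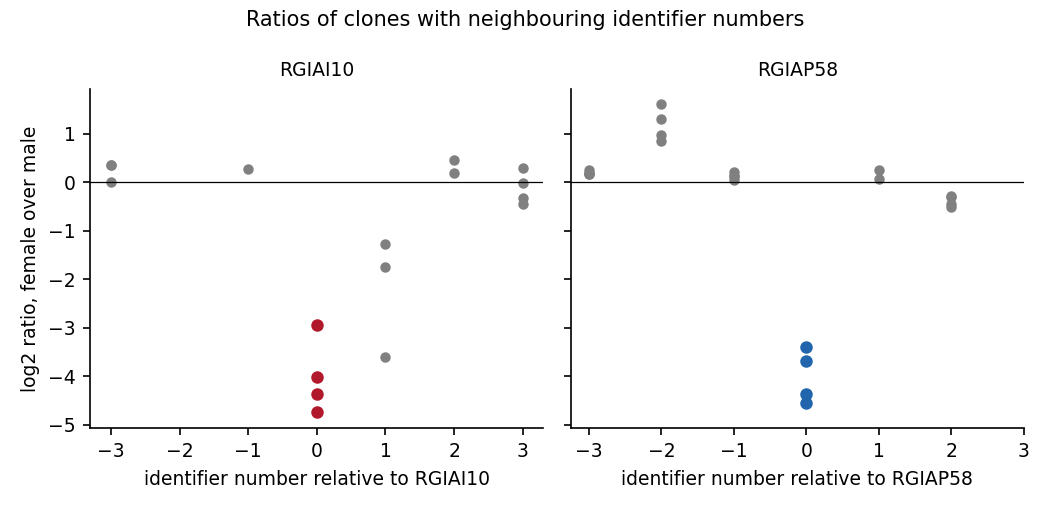
Log2 ratio of female over male (vertical axis, 1 point per array) of clones up to 3 identifier numbers away (horizontal axis) from RGIAI10 at left and RGIAP58 at right. RGIAI11 reaches -3.61, whereas the numbers next to RGIAP58 lie between 0.05 and 0.26.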

How the data were processed

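Total liver RNA of individual animals was labelled with Cy3 or Cy5 and hybridised to spotted cDNA arrays. The authors quantified spots in GenePix Pro, subtracted local background, left out absent spots and spots under 2 times background, and normalized each array by lowess, using the R package SMA. Program versions: not given in the sources used here. Per clone, the authors deposited a log2 ratio for each array, blank where a spot was left out. Spot intensities were not used here, so ratios of strongly unequal transcripts, which rest on a dim channel, could not be checked against background.

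The scale and the direction had to be worked out. Of the 14 highest female over male ratios that the study tabulated, 14 equalled 2 to the power of the mean of a tested clone to 2 decimals, against 0 with the sign turned. Array columns correlated across clones at r = 0.73 to 0.82, also between opposite dye orientations. Columns were used as deposited (medians from -0.0021 to 0.0094).

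Clones on at least 3 of 4 arrays were fitted in limma 3.58.1 (R 4.3.3), with an intercept and, in a second fit, a dye orientation term. P-values are two-sided and Benjamini-Hochberg adjusted over all 2070 clones, with a threshold of 0.05. The fit was tested on simulated data, in which the dye orientation term missed most of the smaller dye effects. Named are the 2 chosen clones, the 2 clones next on each side in mean, the 2 lowest, the 5 nearest in profile and adjacent identifier numbers. RNACB12 was named after its value was seen. Alternatives were centring, scaling, detection filters, robust moderation, medians and each array left out. Members and lists were chosen with earlier results of these data known. The array number limits the precision.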

Additional observations from a re-analysis of the deposited data

Results flagged for a closer look

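Array 4 stood apart in the spread of its ratios over all measured clones. Their median absolute deviation, scaled to equal the SD in normally distributed values, was 0.36. Arrays 1, 2 and 3 gave 0.26, 0.25 and 0.25, and the distance of array 4 to the nearest array took up 0.89 of the whole range. Array 4 was also the array with the fewest measured clones, 1871. RGIAI10 and RGIAP58 were not extreme on it, at -4.01 and -3.68. By chance about 1 in 20 such groups of values holds an outlying array, and 16 were examined. Neither the values of the 2 carbonic anhydrase 3 clones nor their difference held one.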

How the results depend on the processing

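The means of RGIAI10 and RGIAP58 moved by less than 1 SD under each alternative run, and without 1 array they ranged from -4.38 to -3.78 and from -4.20 to -3.81. With medians of the ratios, 1 clone lay in the interval of the rule in place of 2. The dye difference of RGIAI10 turned to 0.15 (adjusted p in limma 0.997) and that of RGIAP58 to 0.42 (adjusted p 0.993) with arrays scaled to equal spread. Without 1 array these differences ranged from -1.25 to 0.55 for RGIAI10 and from -0.63 to 0.53 for RGIAP58. The turned signs were those without array 2 for both clones and, for RGIAP58, also without array 3 (0.29). No alternative gave an adjusted p under 0.05, the lowest being 0.12. The SD of RGIAP58 became 0.93 with scaled arrays, and without 1 array the SDs ranged from 0.37 to 0.95 for RGIAI10 and from 0.46 to 0.62 for RGIAP58. Of the 5 nearest profiles 1 remained when means were subtracted. The count of clones lower in the female, 125, ranged from 82 (without array 1) to 113 with 1 array left out and stayed within 1.5 times under the other alternatives. The fits with 1 array left out took clones on at least 2 of the remaining arrays, so their counts come from other sets of clones than the 125. The cause of these changes was not tested. Each array already pairs 1 female with 1 male, so the limma fit of the ratios against 0 was a paired analysis. The arrays form a single group, and no further pairing was made.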
